A study of Mus musculus with 5 samples.

Results

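Mouse mitochondrial DNA carries 37 genes that the annotation names with the prefix mt-: 13 mRNAs, 2 rRNAs and 22 tRNAs. They were taken from the count tables by that prefix, out of 55385 genes in all. Hippocampal RNA of 3 month old male C57/bl6 mice was sequenced in 5 libraries. The control was 1 library of untreated mouse hippocampus (0 h), and the kainic acid groups were 1 library at 1 h, 2 libraries at 4 h (replicates 1 and 2) and 1 library at 8 h. Kainic acid, a glutamate receptor agonist that provokes seizures, was injected intraperitoneally at 20 mg/kg, and time was counted from the onset of seizures. Only mice that reached generalized seizures were used after kainic acid. No vehicle-injected library was analysed here. The sources used here do not say whether a library came from 1 mouse.

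The circular mitochondrial genome is transcribed from both strands into long precursors. In these precursors tRNAs lie between most of the mRNAs and rRNAs, and their excision releases the other transcripts. The mRNAs encode core subunits of complexes I, III and IV of the respiratory chain and of the ATP synthase (complex V), the rRNAs form the mitochondrial ribosome, and the remaining subunits and the transcription machinery come from the nucleus. Neurons are cells with a high demand for ATP, and hippocampal neurons fire intensely in seizures. The comparisons below address whether single mitochondrial transcripts, or their share of all counted RNA, differed between the control and the hours after seizure onset.

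All 37 identifiers were found with the same version in GENCODE M21 (GRCm38), which places them between base 1 and base 15422 of chromosome M. The plus strand carries 28 of the genes and the minus strand 9, of which 8 are tRNAs and the other is mt-Nd6. The genes are packed so tightly that several share bases. The stretch in which mt-Atp8 ends after mt-Atp6 has begun (43 bases, chrM:7927-7969, plus strand) is shown with the start codon of mt-Atp6 and the stop codon of mt-Atp8 in capitals, followed by the last 30 bases of mt-Nd4l (chrM:10144-10173, plus strand) with the 7 bases that it shares with mt-Nd4 in capitals.
mt-Atp8/mt-Atp6: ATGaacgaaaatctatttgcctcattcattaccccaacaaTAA
mt-Nd4l/mt-Nd4: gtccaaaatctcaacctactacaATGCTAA

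The single mRNA of the minus strand also differs in base composition, which its first 60 bases show beside those of an mRNA of the plus strand. They are printed from chrM:14011-14070 (minus strand) for mt-Nd6 and from chrM:2751-2810 (plus strand) for mt-Nd1, with the annotated start codon in capitals. The whole mt-Nd6 mRNA held 28.1% G and 5.97% C, whereas the 12 mRNAs of the plus strand held between 5.88% and 16.1% G and between 22.1% and 29.97% C. The start codon was not ATG in 4 of the 13 mRNAs (mt-Nd1, mt-Nd2, mt-Nd3 and mt-Nd5), and 3 (mt-Co3, mt-Nd4 and mt-Cytb) ended in an incomplete stop codon.
mt-Nd6: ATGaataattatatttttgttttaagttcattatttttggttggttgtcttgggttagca
mt-Nd1: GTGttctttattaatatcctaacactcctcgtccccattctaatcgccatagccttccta

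Before the values, the libraries themselves differed in ways the groups do not describe. Gene counts numbered between 16612225 and 19109204 per library, and reads on no gene made up between 24.7% and 33.1% of the deposited reads, most in replicate 1 of the 4 h group. Deposited reads are here the gene counts plus the summary lines of the counting. Unaligned reads stood at 0 in every library, so this total need not hold all sequenced reads. Markers of the choroid plexus, a tissue that lies against the hippocampus, summed to between 1692 and 4267 CPM (counts scaled by the TMM-normalized library size) in 4 libraries and to 29.2 in replicate 1 at 4 h (5 of 5 markers found). Oligodendrocyte markers (6 of 6 found) summed to between 3303 and 5072 CPM, and the neuron markers (8 of 8 found) to between 5589 CPM at 8 h and 6745 CPM in replicate 1 at 4 h. The sums of the astrocyte (5217 CPM), endothelial (127.6 CPM) and blood markers (237 CPM) were also highest in replicate 1 at 4 h, whereas the microglia markers were lowest there (168 CPM, against 190.9 in the control). Markers of dentate granule and pyramidal neurons summed to 393.4 CPM in the control, 367 (1 h), 343.3 and 342.6 (4 h) and 395.6 (8 h), so that they did not follow the neuron list. Single markers went in opposite directions within both lists. At 4 h their log2 fold changes against the control ran from -2.99 to 1.28 in this list and from -0.535 to 0.803 in the neuron list. No marker of these lists was at 0 in all libraries. Activity-induced genes summed to 252 CPM in the control, 5094 (1 h), 3665 and 1107 (4 h) and 232 (8 h). In bulk tissue, fewer cells of a type and less RNA per cell cannot be told apart.

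The mitochondrially encoded genes took 6.73% of all gene counts in the control, 5.93% (1 h), 6.88% and 6.42% (4 h) and 5.82% (8 h). The mean of the 4 kainic acid libraries was 6.26% ± 0.488 (SD, n = 4), and the control lay inside the range of these libraries. As a share of all deposited reads, however, the control (4.19%) lay above each of them, at 3.52% (1 h), 3.85% and 3.95% (4 h) and 3.34% (8 h). For the share of gene counts, an exact two-sided permutation test over the 5 libraries gave p = 0.8. With 1 control library its smallest possible p is 0.2, and it takes the 3 time points as 1 group, so no difference of any size could have passed it. In the share of gene counts, the control lay between the replicates at 4 h, and the libraries at 1 h and 8 h lay below both of them. Replicate 1 at 4 h, the library almost without choroid plexus markers, had the highest share of gene counts. Of all deposited reads, its share was below those of the control and of replicate 2. The other marker lists differed in this library in both directions. The part of these differences between libraries in the result was not tested.

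The rRNAs accounted for between 81.1% and 82.5% of the mitochondrial counts in every library. They took 5.55% of gene counts in the control, 4.80% (1 h), 5.68% and 5.25% (4 h) and 4.72% (8 h). The mRNAs took a narrower range, with 1.18% in the control, 1.12% (1 h), 1.20% and 1.17% (4 h) and 1.10% (8 h). The order of the 5 libraries was the same for the rRNAs and the mRNAs. For either class the control's share of gene counts lay inside the range of the kainic acid libraries (p = 0.8 by the same exact permutation test, with the same limit). Of all deposited reads, the control lay above every kainic acid library in both classes. It had 3.45% against at most 3.23% for the rRNAs, and 0.734% against at most 0.718% for the mRNAs. The tRNAs took between 0.00185% and 0.00214% of gene counts (p = 0.6 by the exact permutation test, with the same limit), from 329 to 400 counts per library.

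**Figure D1:**
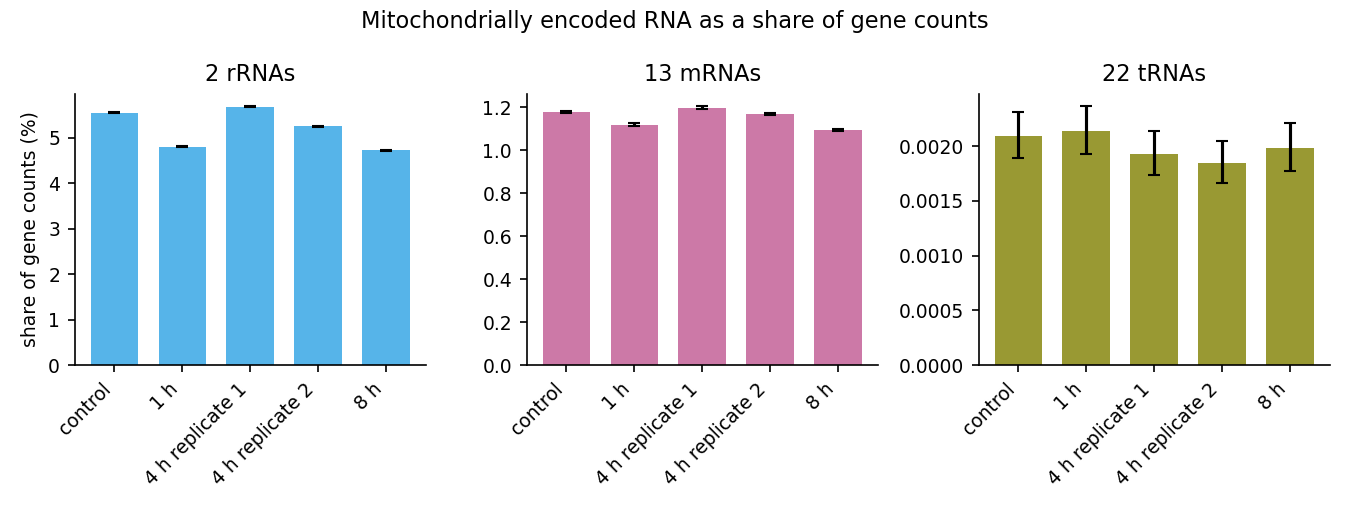
Share of all gene counts (percent, vertical axis) on the 2 rRNAs, the 13 mRNAs and the 22 tRNAs in each library, with a separate vertical scale per panel. Bars give 1 library each, and error bars are exact binomial 95% intervals that cover counting error only. Replicate 1 at 4 h was the highest library for rRNAs (5.68%) and mRNAs (1.20%) and 8 h the lowest (4.72% and 1.10%). As a share of all deposited reads, the control was the highest library for both classes.

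The large rRNA mt-Rnr2 (16S, chrM:1094-2675) was the most counted mitochondrial gene, at 46359 CPM in the control, 42589 (1 h), 53947 and 46082 (4 h) and 39165 (8 h). The small rRNA mt-Rnr1 (12S, chrM:70-1024) had 6898 CPM in the control, 5902 (1 h), 7616 and 6972 (4 h) and 5604 (8 h). For both, the libraries at 1 h and 8 h were the lowest and replicate 1 at 4 h the highest. Counts of mt-Rnr2 were between 6.61 and 7.22 times those of mt-Rnr1 in each library. Against the control, the log2 fold change of mt-Rnr1 was -0.22 ± 0.20 (SE) after 1 h, 0.08 ± 0.17 after 4 h and -0.30 ± 0.20 after 8 h, and that of mt-Rnr2 was -0.12 (SE 0.22), 0.11 (SE 0.19) and -0.24 (SE 0.22). Neither passed the test at any time, and with library size alone both 4 h values turned negative (-0.05 and -0.02). Without replicate 1 the 4 h values were 0.019 for mt-Rnr1 and -0.005 for mt-Rnr2, and without replicate 2 they were 0.147 and 0.223. The kit was a total RNA kit, and whether and how rRNA was removed is not stated in the sources used here, so the rRNA level relative to mRNA is a property of these libraries.

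All 13 mRNAs had counts in every library, but their levels per length spanned a wide range. In RPKM, the counts per kb of gene at a common depth of gene counts, mt-Co1, the catalytic core subunit of complex IV, averaged 5304 over the libraries. It was followed by mt-Nd1, a membrane subunit of complex I, at 1414, and by mt-Cytb, the cytochrome b of complex III, at 840. This order of the first 3 held in every library. The complex I subunits mt-Nd2 (215) and mt-Nd4 (205) came next with overlapping ranges over the libraries, so that they could not be ordered. The range of mt-Co3, a complex IV subunit that averaged 186 RPKM, overlapped both. The average was 136 RPKM for mt-Co2, which carries the copper centre that accepts electrons from cytochrome c. Below them lay mt-Nd5 (85.1), mt-Atp8 (84.6) and mt-Nd6 (76.7), whose ranges overlapped, and then mt-Atp6 (56.7) and mt-Nd3 (56.1), which could not be ordered either. The ranges of mt-Nd6 (lowest 59.6 at 8 h) and mt-Nd3 (highest 60.5 in the control) also overlapped, so that this pair could not be ordered. The last, the complex I subunit mt-Nd4l, averaged 2.71 RPKM, from only 9 to 21 counts per library. As a share of the mRNA counts, mt-Co1 took between 70.1% and 72.1% in the 5 libraries.

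The mRNAs also differed in how much sequence they share with the nuclear genome. For each mRNA, every window as long as a read was searched in the annotated nuclear transcripts. More than 95% of the windows had an identical nuclear copy in 5 mRNAs: mt-Co3 (99.8%), mt-Co2 (99.5%), mt-Atp6 (99.5%), mt-Nd4l (98.3%) and mt-Nd3 (97.3%). The share was 59.97% in mt-Nd4, 26.7% in mt-Co1, 0.547% in mt-Nd2 and 0% in mt-Nd1, mt-Atp8, mt-Nd5, mt-Nd6 and mt-Cytb. The 5 mRNAs with over 95% averaged between 2.71 and 186 RPKM, and the 5 with 0% between 76.7 and 1414 RPKM. Together, the first 5 made up between 2.22% and 2.96% of the mRNA counts. Reads that aligned more than once were held outside the gene counts by the authors' counting (between 9.67% and 11.6% of deposited reads), and their part in the levels of these 5 mRNAs was not tested.

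**Figure D2:**
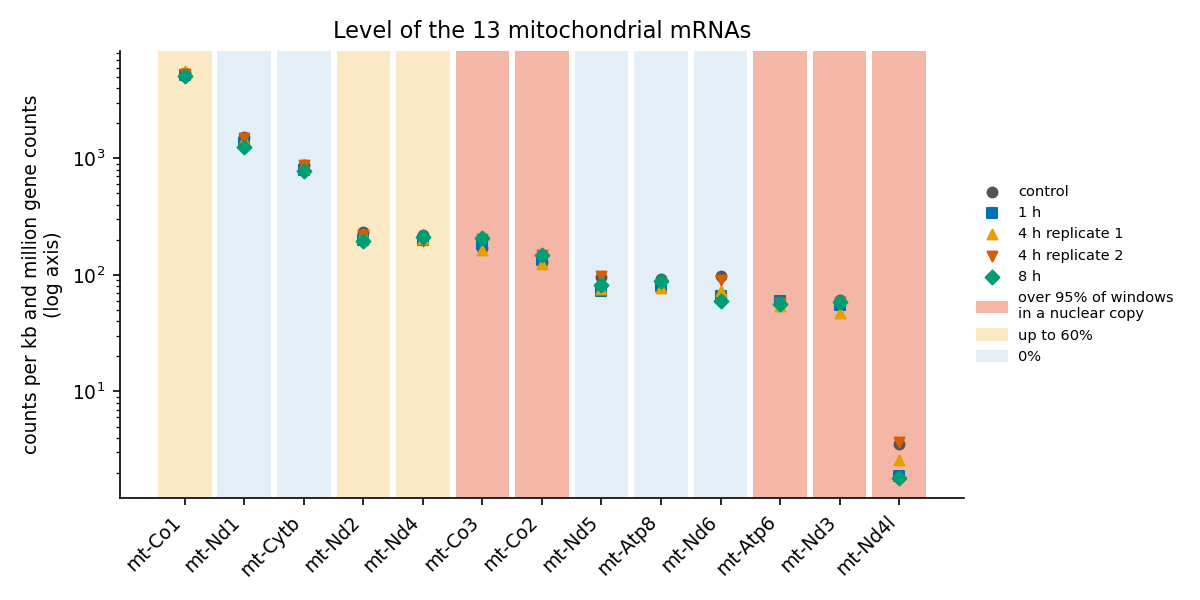
Level of each of the 13 mRNAs in RPKM (log axis), with 1 symbol per library and mRNAs ordered by their mean. Shading gives the share of read-length windows found in an annotated nuclear transcript. Of the 5 mRNAs with over 95%, mt-Co3 was the highest (mean 186) and mt-Nd4l the lowest (2.71).

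The copies are annotated as unprocessed pseudogenes. On chromosome 1, 7 of them lie on the minus strand (chr1:24611535-24616197), in the same order as mt-Co1, mt-Co2, mt-Atp6, mt-Co3, mt-Nd3, mt-Nd4l and mt-Nd4 in the mitochondrial genome, and 3 more lie on chromosome 2 (chr2:22587291-22590533). Between the copies of mt-Co1 and mt-Co2 lie 140 bases, as many as between the mitochondrial genes, whereas the spacing of the other 5 neighbouring pairs differed by 1 to 4 bases. The copies Gm28661 of mt-Co2, Gm10925 of mt-Atp6, Gm28437 of mt-Co3, Gm10222 of mt-Nd4l and Gm28439 of mt-Nd4 had 0 differences over their aligned length. Gm28438 differed from mt-Nd3 at 1 of 345 bases (T3C, counted from 1 at the 5′ end of mt-Nd3), and Gm29216 from mt-Co1 at 6 of 492 bases. The following stretches, with every differing base in capitals, are shown for the copies on chromosome 1 that are not fully identical. They are mt-Nd3 at chrM:9459-9509 (plus strand), Gm28438 at chr1:24613069-24613119 (minus strand), mt-Co1 at chrM:6381-6440 (plus strand) and Gm29216 at chr1:24616138-24616197 (minus strand).
mt-Nd3: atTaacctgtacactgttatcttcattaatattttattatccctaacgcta
Gm28438: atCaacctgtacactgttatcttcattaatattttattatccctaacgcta
mt-Co1: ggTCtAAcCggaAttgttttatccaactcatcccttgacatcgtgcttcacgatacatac
Gm29216: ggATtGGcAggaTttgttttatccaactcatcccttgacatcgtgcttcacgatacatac
All 6 differences between mt-Co1 and Gm29216 fell into this stretch, and the rest of the copy was identical.

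The counts of some copies were close to those of the genes they copy. mt-Atp6 had 729, 715, 677, 754 and 631 counts (control, 1 h, 4 h replicates 1 and 2, 8 h), and its copy Gm10925 had 767, 716, 661, 750 and 657. The ratio of gene to copy was between 0.951 and 1.02, and its exact binomial 95% interval included 1 in each of the 5 libraries. For mt-Co2 the counts were 1687, 1631, 1542, 1922 and 1676, against 1830, 1760, 1556, 1856 and 1721 for Gm28661 (ratios from 0.922 to 1.04). Here the interval included 1 in 3 of the 5 libraries and lay below 1 in the control and at 1 h. Against Gm13341, its copy on chromosome 2, mt-Co2 had ratios from 0.837 to 0.909. This copy is less alike, with 28 differences over 684 aligned bases and 49 shared read-length windows, against 557 in Gm28661. For mt-Co3 the counts were 2530, 2575, 2337, 3015 and 2723, against 2102, 2138, 1960, 2450 and 1999 for Gm28437 (ratios from 1.19 to 1.36). Counts of mt-Nd3 were between 1.40 and 1.58 times those of Gm28438. For the few counts of mt-Nd4l the ratio to Gm10222 was between 0.818 and 3.5. Its interval included 1 in 4 of the 5 libraries and lay above 1 in replicate 2 at 4 h (1.37 to 10.6). In contrast, mt-Nd4 had between 44.9 and 54.6 times the counts of Gm28439, and mt-Co1 between 59.4 and 76.2 times those of Gm29216, both pairs in which part of the mitochondrial gene has no identical copy. Against Gm13340, its copy on chromosome 2 (37 differences over 1545 aligned bases, 24 shared windows), mt-Co1 had ratios from 26.9 to 35.9. Which genome the reads of mt-Atp6, mt-Co2, mt-Co3, mt-Nd3 and mt-Nd4l came from cannot be told apart from these counts, and their values below are uncertain for this reason.

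**Figure D3:**
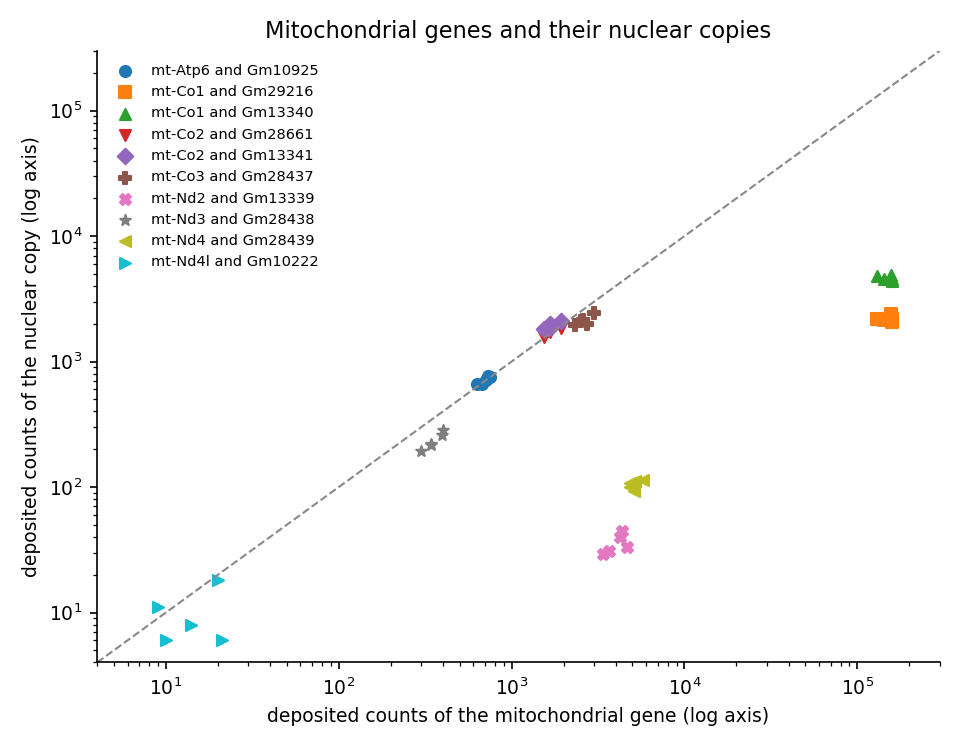
Deposited counts of a mitochondrial gene (horizontal, log axis) against those of its nuclear copy (vertical, log axis), with 1 symbol for each of the 5 libraries and a dashed line where both are equal. The pairs of mt-Atp6 and mt-Co2 lie near the line, and those of mt-Co1, mt-Nd2 and mt-Nd4 far to its right.

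For the comparison of the time points with the control, counts were normalized with TMM factors and fitted with the quasi-likelihood model of edgeR. Of the 37 genes, 22 passed the filter on low counts, namely all mRNAs, both rRNAs and 7 tRNAs. No member passed an adjusted p of 0.05 (edgeR quasi-likelihood test, Benjamini-Hochberg) at 1 h, 4 h or 8 h or in the joint test of the 3 time points. The background was low as well, since the test called 0% of the 19768 genes at 1 h, 0.00506% at 4 h, 0% at 8 h and 0.0101% in the joint test. At an unadjusted p under 0.05 stood 0 of the 22 at 1 h (2.42% of all genes tested), 0 at 4 h (11.6%), 1 at 8 h (4.51%) and 0 in the joint test (8.33%). DESeq2 called none of them (0.248%, 1.18% and 0.162% of all genes at 1, 4 and 8 h), nor did limma-voom (0% of all genes at each time). However, DESeq2 gave no adjusted p for mt-Nd4l, mt-Tm and mt-Ta at any time and for mt-Tq at 1 h and 4 h, so these could not be called there. The single libraries were assumed to vary like the pair at 4 h, which alone supplied the 1 residual degree of freedom. Because the 3 comparisons share the control library, a high or low control value moves all of them together.

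The 7 mRNAs of complex I, the NADH dehydrogenase that feeds electrons into the chain, all lay below the control at 1 and 8 h, and none passed the adjusted threshold. Their median log2 fold change came to -0.17 (1 h), -0.03 (4 h) and -0.28 (8 h), beside -0.005, 0.01 and 0.009 over all genes tested. At 1 h and 8 h all 7 lay below the control under each alternative scaling of the libraries tried. As a share of the mRNA counts, however, mt-Nd4 took 2.67% at 8 h against 2.55% in the control. mt-Nd3 took 0.187% against 0.178%, and the other complex I mRNAs lay below the control in this share at 8 h. The median at 4 h rested on the replicates, at 0.044 without replicate 1 and -0.176 without replicate 2, and it was -0.148 with library size alone. The lowest p of the group belonged to mt-Nd6, with 48.3 CPM in the control, 34.2 (1 h), 40.6 and 46.96 (4 h) and 29.3 (8 h). Every kainic acid library was below the control, and the library at 8 h was the lowest. The log2 fold change of mt-Nd6 was -0.50 ± 0.24 (SE) after 1 h, -0.14 ± 0.21 after 4 h and -0.72 ± 0.24 after 8 h. At 8 h its unadjusted p was 0.0278 in the edgeR quasi-likelihood test, the value under 0.05 counted above, with an adjusted p of 1 (Benjamini-Hochberg).

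The gene mt-Nd6 overlaps mt-Nd5, a proton-pumping subunit of complex I, on the opposite strand by the last bases of both. The strand setting of the counting is not stated in the sources used here, so that reads of the pair cannot be separated there. mt-Nd5 had 169 CPM in the control, 134 (1 h), 149 and 182 (4 h) and 143 (8 h), with the control inside the range of the kainic acid libraries. Counts of mt-Nd6 were 28.7% of those of mt-Nd5 in the control, 25.5% (1 h), 27.3% and 25.8% (4 h) and 20.6% (8 h), a ratio that does not depend on library size.

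The other complex I mRNAs differed less or rested on few counts. mt-Nd1 had 1402 CPM in the control, 1311 (1 h), 1489 and 1448 (4 h) and 1136 (8 h), and its log2 fold change at 8 h was -0.30 ± 0.19 (SE). mt-Nd2 had 234 CPM in the control, 208 (1 h), 251 and 231 (4 h) and 193 (8 h). In both, the replicates at 4 h lay near or above the control and 8 h was the lowest library. mt-Nd4 moved little, from 289 CPM in the control to 277, 302, 273 and 277 in the kainic acid libraries, and mt-Nd3 ranged from 17.7 to 20.8 CPM over all 5. mt-Nd4l had 20, 10, 14, 21 and 9 counts in the library order given for mt-Atp6, and its log2 fold change of -0.84 at 8 h had an SE of 0.75.

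The 3 mRNAs of complex IV, the cytochrome c oxidase that reduces oxygen, lay above the control at 1 and 4 h, again without passing the test, although with library size alone mt-Co1 was at -0.04 (log2) at 1 h. Their median log2 fold change came to 0.13 (1 h), 0.19 (4 h) and 0.17 (8 h), and with library size alone to 0.057, 0.067 and 0.192. The median at 8 h was the value of mt-Co2, while mt-Co1 lay below the control there (-0.096) and mt-Co3 above it. Summed over the 3 mRNAs, most of it mt-Co1, the level was 8153 CPM in the control and 7678 CPM at 8 h. mt-Co1 had 7941 CPM in the control, 8104 (1 h), 9374 and 8274 (4 h) and 7427 (8 h). mt-Co2 had 84.8 CPM in the control against 92.8, 91.6, 102 and 95.6, and mt-Co3 had 127 against 147, 139, 159 and 155. On this scale the control was the lowest of the 5 libraries in mt-Co2 and mt-Co3, whereas with library size alone replicate 1 at 4 h was the lowest (84.5 against 88.3 CPM in the control for mt-Co2, and 128.1 against 132.5 for mt-Co3). The log2 fold change of mt-Co3 was 0.21 ± 0.20 (SE) after 1 h, 0.23 ± 0.18 after 4 h and 0.29 ± 0.20 after 8 h. Both mt-Co2 and mt-Co3 belong to the mRNAs with a nearly complete nuclear copy, and their copies Gm28661 and Gm28437 were also lowest in the control on the normalized scale, at 92.0 and 106 CPM, respectively, against at least 92.4 and 114 CPM in the kainic acid libraries. With library size alone, replicate 1 at 4 h was the lowest for the copies too (85.3 and 107.4 CPM, against 95.8 and 110.1 in the control).

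The cytochrome b mRNA mt-Cytb had 957 CPM in the control, 921 (1 h), 1087 and 1005 (4 h) and 849 (8 h), an order close to that of mt-Nd1. The complex V subunits mt-Atp6 and mt-Atp8, which share 43 bases, stayed near the control. mt-Atp6 had 36.6 CPM in the control and between 36.0 and 40.7 in the other libraries, and mt-Atp8 had 18.1 and between 16.5 and 17.5. The replicates at 4 h differed by 0.01 on the log2 scale in mt-Atp6 and by 0.04 in mt-Atp8, the smallest differences between them among the 13 mRNAs together with mt-Nd1 (0.04).

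**Figure D4:**
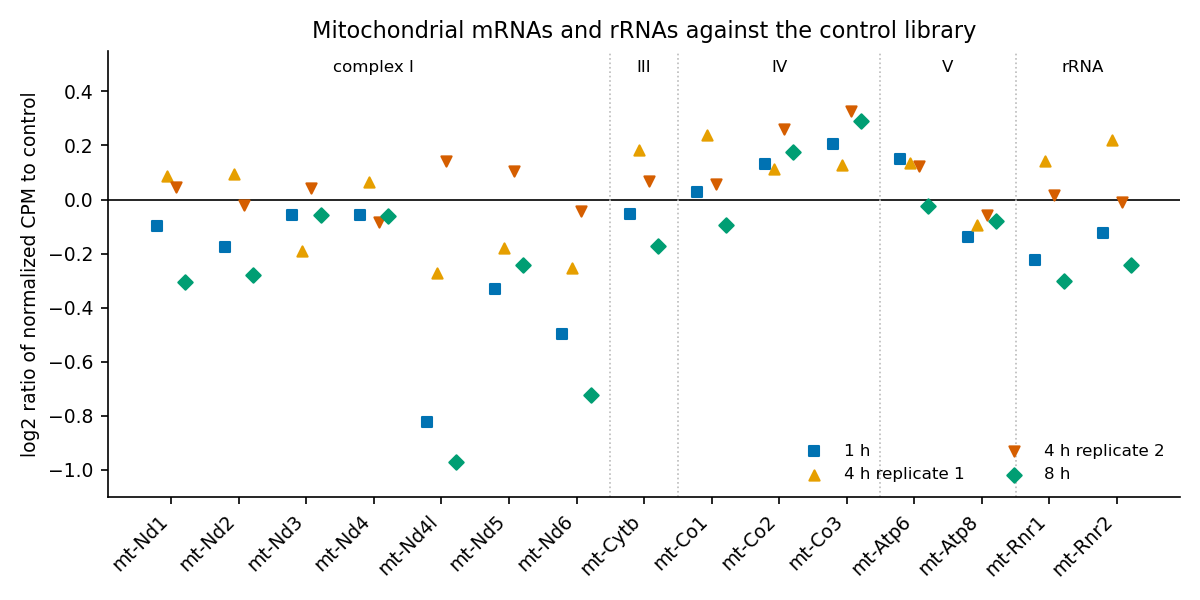
Log2 ratio of normalized CPM in each kainic acid library to the control (vertical axis) for the 13 mRNAs, grouped by respiratory complex, and the 2 rRNAs. Each symbol is 1 library. The 7 complex I mRNAs lie below 0 at 1 h and 8 h, while mt-Co2 and mt-Co3 lie above 0 in every kainic acid library, which with library size alone does not hold for replicate 1 at 4 h.

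Over all 13 mRNAs the median log2 fold change came to -0.06 (1 h), 0.04 (4 h) and -0.10 (8 h). In single libraries, the median log2 ratio of the 13 mRNAs to the control was 0.087 and 0.059 in the replicates at 4 h, and the values of -0.058 (1 h) and -0.096 (8 h) lay below both. With library size alone, the median log2 fold change came to -0.131 (1 h), -0.087 (4 h) and -0.078 (8 h), so that 8 h did not lie below 4 h. For single genes, the median absolute log2 difference between the replicates was 0.15 over the 13 mRNAs and 0.27 over all genes tested. At 8 h 11 of the 13 lay below the control, beside 9665 of the 19768 genes tested. The difference between time points was tested for each gene, a contrast chosen after the values were seen. From 1 h to 4 h the median log2 fold change of the mRNAs was 0.12, and from 4 h to 8 h it was -0.21, beside 0.01 and -0.02 over all genes. No member passed an adjusted p of 0.05 in either contrast (edgeR quasi-likelihood test, Benjamini-Hochberg), with 0.00506% and 0% of all genes called. At an unadjusted p under 0.05 stood 0 members from 1 h to 4 h (7.94% of all genes) and 1 from 4 h to 8 h (8.73%), which was again mt-Nd6 at -0.58 ± 0.21 (log2, SE).

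The tRNAs fell into those with counts and those at 0. Counts were listed for 10 of the 22, and 12 had 0 counts in all 5 libraries, which at this depth allows a share of up to 1.81e-05% of gene counts (3 counts in the smallest library). The tRNA for tryptophan, mt-Tw, was the most counted, with 6.28 CPM in the control, 6.54 (1 h), 7.07 and 5.71 (4 h) and 5.31 (8 h). The tRNA for proline, mt-Tp, had 79, 87, 72, 88 and 65 counts in that library order, and that for isoleucine, mt-Ti, had 78, 70, 56, 53 and 85. The tRNA for threonine, mt-Tt, had between 39 and 51 counts, and mt-Tq (glutamine) between 21 and 33. At most 15 counts in any library were seen for mt-Tm (methionine), mt-Ta (alanine), mt-Te (glutamate), mt-Ty (tyrosine) and mt-Ts1 (serine). The tRNAs that passed the filter showed no order of the time points in common, and their standard errors at 8 h were between 0.40 and 1.14 on the log2 scale.

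At 59 to 75 bases, all 22 tRNAs are shorter than a sequenced read, so a read over one runs into its surroundings. The distance to the next gene of the same strand, taken on the wider side, was between 70 and 6613 bases in 9 of the 10 tRNAs with counts. It was at most 69 bases in 11 of the 12 tRNAs at 0. The remaining tRNAs, mt-Tt with counts and mt-Tf at 0, are the plus-strand genes nearest the control region of the circular genome on either side. The minus-strand gene mt-Tp lies between mt-Tt and that region. A place next to the control region on the plus strand thus went with counts in mt-Tt and not in mt-Tf. The groups nearly met, with 70 bases in mt-Ti and mt-Tm, which had counts, and 69 in mt-Td, which had none. This description was made after the values were seen and carries no test, and it takes strand into account although the strand setting of the counting is not known. Sequences are shown for 3 counted tRNAs and for mt-Tv (valine), which had 0 counts and abuts an rRNA on either side. They are mt-Tw (chrM:4950-5016, plus strand), mt-Ti (chrM:3706-3774, plus strand), mt-Tp (chrM:15356-15422, minus strand) and mt-Tv (chrM:1025-1093, plus strand), with the bases shared with the gene before them in capitals.
mt-Tw: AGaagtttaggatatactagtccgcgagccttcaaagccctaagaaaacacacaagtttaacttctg
mt-Ti: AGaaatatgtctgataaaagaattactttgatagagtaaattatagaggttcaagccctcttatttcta
mt-Tp: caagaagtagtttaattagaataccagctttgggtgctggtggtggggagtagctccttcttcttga
mt-Tv: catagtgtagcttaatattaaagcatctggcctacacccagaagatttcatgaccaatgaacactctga

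**Figure D5:**
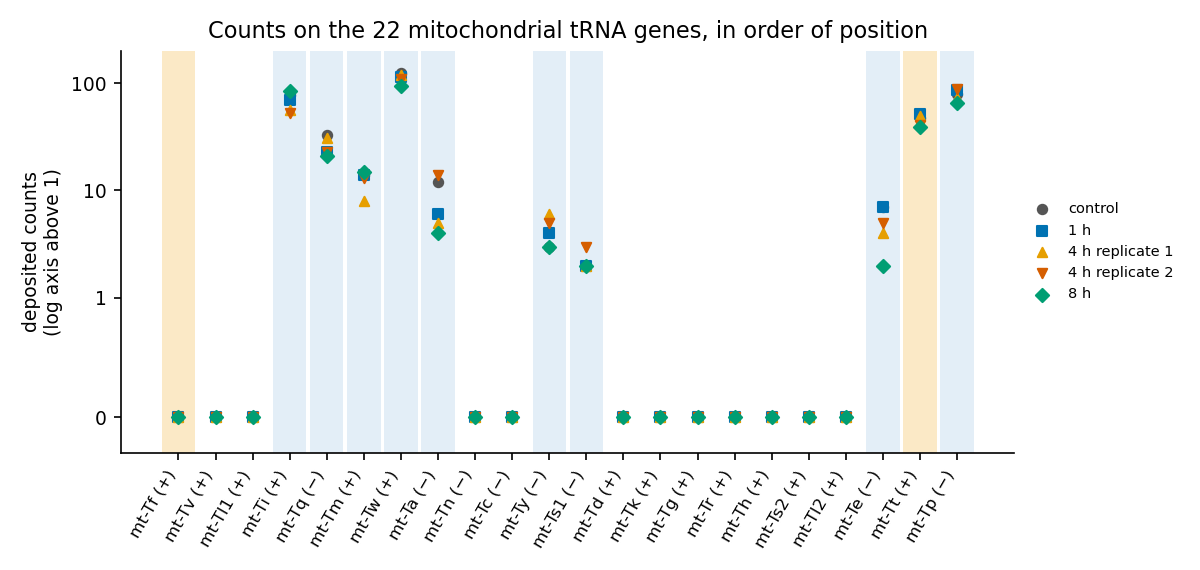
Deposited counts (vertical axis, linear below 1 and logarithmic above) on the 22 tRNA genes in order of position, with the strand in brackets and 1 symbol per library. Blue shading marks tRNAs with at least 70 bases to the next same-strand gene on 1 side, a limit set after the values were seen. Yellow shading marks mt-Tf and mt-Tt, the plus-strand genes nearest the control region. Blue covers 9 of the 10 tRNAs with counts and none of the 12 without, and the yellow tRNAs divide into mt-Tt with counts and mt-Tf at 0.

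The nuclear partners of these genes gave no call either. Among 42 nuclear genes for transcription, processing and maintenance of mitochondrial RNA and DNA, the edgeR test called 0 at each time, beside 0%, 0.00506% and 0% of all genes tested. At an unadjusted p under 0.05 in that test stood 2 above and 2 below the control at 4 h (11.6% of all genes tested). At 1 h and 8 h there were 0 (2.42% and 4.51% of all genes tested). The median log2 fold change of the 42 genes came to -0.08 (1 h), -0.08 (4 h) and 0.04 (8 h). The mitochondrial RNA polymerase Polrmt had log2 fold changes of 0.01, -0.24 and 0.05, and the transcription factor Tfam of -0.06, -0.04 and 0.14. For Lrpprc, which stabilizes mitochondrial mRNAs, they were 0.08, 0.25 and 0.02, and for Ppargc1a they were -0.04, -0.27 and -0.36. At 4 h the values farthest from 0 among the better expressed genes of the list were 1.11 (SE 0.37) for Fastkd5, an RNA-processing factor, and -0.83 (SE 0.28) for Mterf2. Neither passed the edgeR quasi-likelihood test (adjusted p = 0.376 and 0.378, Benjamini-Hochberg). Next were Nrf1 (0.79, SE 0.24), Prorp (-0.78, SE 0.417) and Ptcd1 (-0.69, SE 0.215), which did not pass it either. Their adjusted p in the same edgeR test was 0.358, 0.5185 and 0.363, that of Nrf1 being the lowest of the list. Fastkd5 had 3.47 CPM in the control and 8.08 and 7.14 CPM in the replicates at 4 h, and it reached the mean of 5 CPM needed to be named only through the latter, so its place here is partly set by that rule. The 72 nuclear genes of complexes I, III, IV and V that were tested had medians of -0.02, -0.02 and -0.08, with 0 called. At 8 h 54 of these 72 lay below the control, beside 9665 of the 19768 genes tested. By complex, 27 of 36 (I), 8 of 9 (III), 7 of 11 (IV) and 12 of 16 (V) lay below it. The nuclear subunits of complex I had a median of -0.11 at 8 h, beside -0.28 for the mitochondrial ones. The difference between these medians was not tested.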

How the data were processed

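Total RNA libraries of 5 hippocampal samples were analysed. Per the labels, the authors prepared them with a stranded total RNA kit. According to the submitters' processing notes and the study's methods, paired reads of 125 bases were aligned with STAR 2.5.1b to GRCm38.p4, and HTSeq was used for counting. The deposited files hold raw counts per gene, with no normalization. For HTSeq, neither version, mode nor strand setting is stated, and neither is the annotation release. Summary lines (no gene, ambiguous, aligned more than once) were kept out of gene counts and tests, and made up between 37.8% and 44.1% of the deposited reads.

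Gene positions and transcripts came from GENCODE M21 (55144 of 55385 identifiers found). Counts were filtered with filterByExpr and fitted with the quasi-likelihood model of edgeR 4.0.16 in R 4.3.3, with TMM factors between 0.924 and 1.06, 4 groups and 1 residual degree of freedom. p values were adjusted after Benjamini-Hochberg over 19768 genes with a threshold of 0.05, a prior count of 2 entered the log2 fold changes, and each standard error was computed from the F statistic. DESeq2 1.42.0, limma-voom 3.58.1, other factors and other filters were alternatives. The fitting code was run on simulated counts with known changes, which tests the code and not the calibration of a test with 1 residual degree of freedom. Intervals (95%) and the floor of 3 counts cover counting error only. Python 3.11.15, Biopython 1.88 and matplotlib 3.10.9 were used. Every mitochondrial gene is reported. Of the 42 nuclear genes for mitochondrial gene expression, Polrmt, Tfam, Lrpprc and Ppargc1a were named. So were those farthest from 0 at 4 h among genes of that list with a mean of at least 5 CPM. The members and lists were chosen with earlier results of these data known.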

Additional observations from a re-analysis of the deposited data

Results flagged for a closer look

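In 2 cases, data outside the comparisons were higher in each of the 4 kainic acid libraries than in the control, the nuclear copies only on the TMM-normalized scale. Reads on no annotated gene made up 24.7% of the deposited reads in the control, 29.0% (1 h), 33.1% and 25.3% (4 h) and 30.9% (8 h). The 7 nuclear copies of mitochondrial genes on chromosome 1 summed to 367 normalized CPM in the control, 403 (1 h), 389 and 415 (4 h) and 394 (8 h), whereas the 13 mitochondrial mRNAs summed to 11330 in the control and to 11310, 13000, 11800 and 10380. With library size alone the sum of the copies was 382.7 CPM in the control and 358.6 in replicate 1 at 4 h, so that this library lay below the control. The control was 1 library, so the spread between controls is not known.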

How the results depend on the processing

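Over the alternatives, 0 of 574 tested values of single members passed the adjusted threshold, and the lowest adjusted p was 0.463. The sign of a member's log2 fold change differed from that reported in 19 of 717 values, all of them reported at a size of at most 0.17, of which 9 came with library size alone and 10 with a replicate of the 4 h group left out. With library size alone, which moves the median of all genes at 4 h to -0.11, the median log2 fold change of the 13 mRNAs was -0.13 at 1 h and -0.087 at 4 h, where the reported 4 h value is positive. At 8 h it was -0.078. With at least 10 counts in every library, which leaves out mt-Nd4l, the median of the remaining 12 mRNAs was -0.063 at 8 h. With members summed with their nuclear copies (chosen after seeing the data), the median of the 13 was -0.10 at 1 h. Leaving out replicate 1 or replicate 2 gave 0.063 and 0.091 at 4 h, values with no test since each group then holds a lone library. As a share of all deposited reads the 37 genes took 4.19% in the control, 3.52% at 1 h, 3.90% at 4 h (mean) and 3.34% at 8 h, with the control above every kainic acid library. The mRNAs alone took 1.18%, 1.12%, 1.18% and 1.10% of gene counts. With the 4 kainic acid libraries as 1 group, edgeR called 0 of 19768 genes (454 at an unadjusted p under 0.05) and 0 of the 22 members (0). No paired analysis was possible because only the 4 h group has 2 libraries. The low counts of mt-Nd4l and the tRNAs limit what could be seen in them.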
